A study of Mus musculus with 43 samples.

Results

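The sinusoidal endothelium lines the smallest blood vessels of the liver, and 10 of its genes were followed here in mouse liver RNA. They are 4 genes of secreted ligands (Bmp2, Wnt2, Wnt9b and Rspo3) and 6 genes of surface proteins (Stab1, Stab2, Lyve1, Clec4g, Kdr and Pecam1). The members were taken by gene name. All 10 were found among the 14622 genes of the hemizygous table and among the 13741 genes of the homozygous table, and all 10 passed the filter on low values in both.

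The study asked how insulin signalling in the liver acts on gene expression in PiZ mice, a model of alpha-1-antitrypsin deficiency. In these mice a transgene supplies the human Z variant of the protein, which misfolds and is retained in hepatocytes. LIRKO stands for a liver-specific knockout of Insr, the insulin receptor gene. F1KO stands for a further knockout of Foxo1, whose product insulin normally drives from the nucleus. No source used here names the Cre driver or the promoter of the transgene. All 36 mice were males aged 4 to 5 months with C57BL6/J and FVBN in their background, and they gave 43 libraries. The hemizygous table held 5 Z LIRKO F1KO mice, 5 PiZ mice written Z* in their label, 4 Z LIRKO mice, 5 Z mice with a hemizygous transgene, 4 LIRKO mice and 3 wild-type (WT) mice. The homozygous table held 7 ZZ LIRKO mice, 3 ZZ mice with a homozygous transgene, and the same 4 LIRKO and 3 WT mice as the other table. The Z LIRKO F1KO and Z* mice carry another source name than the other mice of the table, so F1KO and this source cannot be told apart when Z LIRKO F1KO is set against Z LIRKO.

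Sinusoidal endothelial cells clear macromolecules from blood through scavenger receptors, and they instruct the hepatocytes beside them through secreted, so-called angiocrine, ligands. BMP2, with BMP6, signals from these cells to hepatocytes and sets the level of hepcidin, the hormone that limits iron uptake. WNT2 and WNT9B come mainly from endothelial cells around the central vein, where RSPO3 enhances their signal, and together they keep the genes of pericentral hepatocytes active. In whole liver RNA, fewer endothelial cells and less RNA per endothelial cell cannot be told apart.

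All 10 genes are protein coding and are given on GRCm38. Among the ligands, Bmp2 lies on chromosome 2 from 133552159 to 133562885, Wnt2 on chromosome 6 from 17988940 to 18030585, Wnt9b on chromosome 11 from 103727364 to 103749821 and Rspo3 on chromosome 10 from 29452416 to 29535867. Among the surface genes, Stab1 lies on chromosome 14 from 31139013 to 31168641, Stab2 on chromosome 10 from 86841198 to 87008025 and Lyve1 on chromosome 7 from 110850607 to 110863239. Clec4g lies on chromosome 8 from 3707064 to 3720651, Kdr on chromosome 5 from 75932827 to 75978458 and Pecam1 on chromosome 11 from 106654217 to 106750628. Bmp2 is on the plus strand and the other 9 are on the minus strand. No source used here gives the strand rule of the counting, so reads of overlapping genes on the other strand could not be told apart. Such overlaps covered 112 exon bases of Stab1 (with Nt5dc2), 141 of Stab2, 146 of Clec4g and 404 of Rspo3, and none in the exons of the other 6.

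The promoters of 2 pairs are shown, Stab2 with Kdr and Wnt2 with Wnt9b, which correlated from mouse to mouse in both tables, as described further on. Other pairs, such as Stab1 with Stab2, correlated as well, so this choice does not single these pairs out. The sequences run 5′ to 3′ on the gene's own strand, from 250 bases before to 50 bases after the start, in RefSeq on GRCm38.p6, and the capitals mark CG dinucleotides. They lie at chr10:87007893-87008192 (Stab2), chr5:75978406-75978705 (Kdr), chr6:18030396-18030695 (Wnt2) and chr11:103749772-103750071 (Wnt9b), all on the minus strand.
Stab2: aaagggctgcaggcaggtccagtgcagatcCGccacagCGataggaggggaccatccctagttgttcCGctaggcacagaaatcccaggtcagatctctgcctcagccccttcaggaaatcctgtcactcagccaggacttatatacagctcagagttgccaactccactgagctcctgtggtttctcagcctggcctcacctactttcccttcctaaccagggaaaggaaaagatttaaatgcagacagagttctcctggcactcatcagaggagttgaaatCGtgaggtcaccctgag
Kdr: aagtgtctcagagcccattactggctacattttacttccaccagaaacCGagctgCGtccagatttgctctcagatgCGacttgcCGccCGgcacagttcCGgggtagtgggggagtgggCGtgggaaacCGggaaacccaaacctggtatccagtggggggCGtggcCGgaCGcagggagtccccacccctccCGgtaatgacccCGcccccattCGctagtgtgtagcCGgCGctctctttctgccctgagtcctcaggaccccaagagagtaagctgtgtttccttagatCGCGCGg
Wnt2: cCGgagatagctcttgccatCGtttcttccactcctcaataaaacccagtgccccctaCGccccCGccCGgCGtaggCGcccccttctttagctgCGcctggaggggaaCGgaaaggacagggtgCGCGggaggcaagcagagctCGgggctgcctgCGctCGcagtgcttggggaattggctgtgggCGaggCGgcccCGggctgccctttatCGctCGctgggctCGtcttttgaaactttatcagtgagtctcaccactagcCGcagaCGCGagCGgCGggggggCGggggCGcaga
Wnt9b: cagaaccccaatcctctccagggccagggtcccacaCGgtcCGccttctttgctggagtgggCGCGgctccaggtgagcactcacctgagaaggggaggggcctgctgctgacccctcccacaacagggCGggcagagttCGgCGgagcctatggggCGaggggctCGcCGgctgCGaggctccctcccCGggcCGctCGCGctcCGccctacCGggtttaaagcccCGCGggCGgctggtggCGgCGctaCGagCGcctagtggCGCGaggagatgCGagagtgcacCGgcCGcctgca

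The RefSeq table held 6 of the 10 promoters, the 4 shown and those of Stab1 and Clec4g. It had no entry for Bmp2, Rspo3, Lyve1 and Pecam1. The promoters of Wnt9b and Wnt2 were dense in CG, with 29 and 27, against a median of 7 over 32851 promoters of the same length. As many or more were held by 12.9% of promoters for Wnt9b and by 15.5% for Wnt2. Kdr, the gene of VEGF receptor VEGFR2, had 19, a number reached by 28.1% of promoters. Stab1 had 7, and Stab2 and Clec4g had 4 each, which 68.6% of promoters reached. 3 motifs were searched on both strands, with no overlap between them. The ETS motif AGGAAG occurred in Stab1, Stab2 and Clec4g, and in 35.4% of all promoters. The forkhead motif GTAAACA, the kind of site that FOXO factors bind, and the GATA motif AGATAA were in none of these 6 windows, and in 3.65% and 11.2% of all promoters. These are matches of letters and no evidence of binding.

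The recovered reads per library ranged over 13.8 to 23.9 M in the hemizygous table and over 38.2 to 90.1 M in the homozygous table. The deletions followed the labels. Insr averaged 5.20 to 5.96 log2 CPM in the 3 hemizygous groups with LIRKO and 6.80 to 7.12 in the others, and Foxo1 averaged 2.76 ± 0.14 in Z LIRKO F1KO livers against 5.53 ± 0.21 in Z* livers (SD, n = 5 each). Levels of clock genes differed between groups. The mean of the clock genes that peak late minus that of those that peak early was 3.19 ± 0.84 log2 units in LIRKO mice (SD, n = 4) and 0.29 ± 1.12 in WT mice (SD, n = 3). Means of the other hemizygous groups ranged over 2.39 (Z) to 3.20 (Z LIRKO). Transcripts of the pancreas were present in some livers, with Prss2, a trypsin gene, above 0 log2 CPM in 8 of the 26 hemizygous libraries and in 3 of the 17 homozygous ones.

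Between genes, levels were compared per kilobase of exon. In the hemizygous table the order of the mean log2 CPM per kilobase was Clec4g (4.34), Stab2 (3.69), Stab1 (3.5), Kdr (2.96), Bmp2 (2.78), Pecam1 (1.98), Rspo3 (1.27), Wnt2 (1.04), Lyve1 (0.83) and Wnt9b (-0.91). The lectin gene Clec4g and the scavenger receptor genes Stab2 and Stab1 thus stood highest, and Wnt9b lowest. The reads behind a value differed widely: in every hemizygous library Stab1 rested on at least 1092 reads, but Wnt2 rested on as few as 37, Lyve1 on 19 and Wnt9b on 13.

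**Figure D1:**
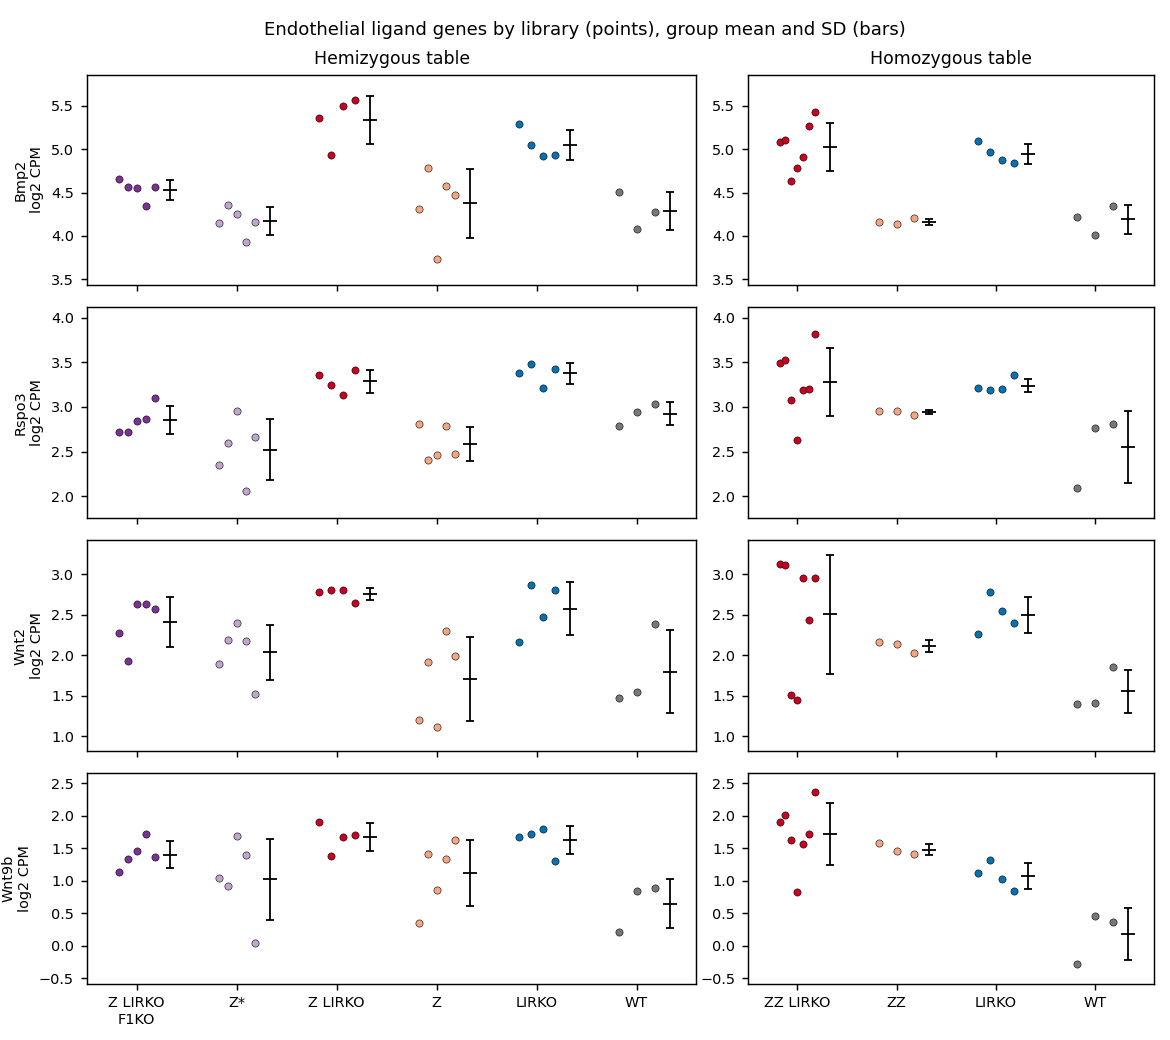
Log2 CPM of the 4 ligand genes in every library, by group, with group mean and SD at the right of the points. The left column is the hemizygous and the right column the homozygous table. In Bmp2 the Z LIRKO, LIRKO and ZZ LIRKO mice lie between 4.63 and 5.56, and the 5 Z LIRKO F1KO mice between 4.34 and 4.66.

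The ligand genes were higher in LIRKO than in WT livers. Of the 10 members 4 passed, all of them ligands and all higher, in a comparison in which 23.7% of the 13596 genes tested passed and 11.8% passed as higher. The median log2 difference was 0.25 over the members and 0.01 over all genes tested.

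Bmp2, the BMP ligand, stood at 5.29, 5.04, 4.92 and 4.94 log2 CPM in LIRKO mice against 4.51, 4.08 and 4.27 in WT mice. Every LIRKO mouse was above every WT mouse, and the log2 difference was 0.76 ± 0.18 (SE, 1.70-fold, adjusted p = 0.00328). Rspo3, whose protein amplifies WNT signals, stood at 3.38, 3.49, 3.22 and 3.42 in LIRKO against 2.79, 2.95 and 3.04 in WT mice. These groups did not overlap either, and the difference was smaller, at 0.45 ± 0.16 (SE, adjusted p = 0.0415). Wnt2 stood at 2.16, 2.86, 2.47 and 2.81 in LIRKO mice against 1.47, 1.54 and 2.39 in WT mice. Here the highest WT mouse lay within the LIRKO range (0.78 ± 0.27, adjusted p = 0.0405). Wnt9b, the least abundant member, stood at 1.67, 1.73, 1.79 and 1.31 in LIRKO mice against 0.22, 0.84 and 0.89 in WT mice. It had the largest difference of the 10, 0.98 ± 0.30 (SE, 1.97-fold, adjusted p = 0.0215), and no overlap. In all, 6 of 10 members had groups that did not overlap, against 36.4% of all genes.

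The surface genes did not pass in this comparison. The log2 differences were 0.15 for Pecam1, 0.20 for Clec4g, 0.23 for Stab2, 0.24 for Stab1 and 0.27 for Kdr, with adjusted p of 0.123 to 0.526. Lyve1 was lower on average (-0.59 ± 0.42, adjusted p = 0.323). Among the 25 other sinusoidal genes tested, 6 rose and none fell, with a median of 0.30. They included Dnase1l3, a secreted DNase (0.62), Cd300lg, a receptor of capillary endothelium (0.55), and Erg, an ETS factor of endothelium (0.49).

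These calls rested on few mice. Without WT mouse 1564 only Bmp2 passed, and without LIRKO mouse 1474, 1483 or 1600, or WT mouse 1586, 2 members passed. With the clock value in the model only Bmp2 passed. The clock value itself did not overlap between LIRKO (2.04 to 4.01) and WT mice (-0.73 to 1.48), so this fit cannot separate it from genotype. Without the Prss2 libraries, which leaves 1 WT mouse that is assumed to vary like the other groups, only Wnt9b passed, and Bmp2 stood at 0.54 (adjusted p = 0.234). Markers of Kupffer cells, the resident macrophages, moved as well: 5 of 12 rose, and their summed level ranged over 648.1 to 843.8 CPM in LIRKO livers and 504.3 to 624.1 CPM in WT livers. The part of these cells in the result was not tested.

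The same 7 mice in the homozygous table gave a second measurement of these livers, with deeper libraries and another scaling, but no further animals. Again 4 members passed, all higher (27.8% of 13690 genes passed, 13.8% as higher), and 3 of them were the same, Bmp2, Rspo3 and Wnt9b. Bmp2 stood at 4.84, 4.88, 4.96 and 5.09 in LIRKO mice against 4.34, 4.01 and 4.22 in WT mice (0.75 ± 0.15, adjusted p = 0.00175). Kdr, which takes up the VEGF signal, was the other gene to pass, at 0.36 ± 0.11 (SE, adjusted p = 0.0278). Wnt2 differed by 0.95 ± 0.37 with an adjusted p of 0.0641, although its groups did not overlap. Non-overlapping groups were seen for 8 of 10 members and for 39.6% of all genes. WT mouse 1564 again carried much of the result: without it 1 member passed. Without LIRKO mouse 1483 or 1468, or with voom weights, 2 passed. Bmp2 lost its call without the Prss2 libraries (0.73, adjusted p = 0.06).

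Members were also higher with insulin receptor loss in mice with the hemizygous transgene. In Z LIRKO against Z livers 8 of 10 members passed, all higher, where 34.3% of 13596 genes passed and 16.7% passed as higher. The median log2 difference was 0.54 over the members and 0.02 over all genes. The remaining members, Lyve1 and Wnt9b, were also higher on average, with adjusted p of 0.0969 and 0.112. With voom weights 9 members passed, Lyve1 (0.78, adjusted p = 0.0405) and Wnt9b (0.62, adjusted p = 0.0444) among them but not Stab1 (0.25, adjusted p = 0.0523).

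Among the ligands, Bmp2 stood at 5.36, 4.94, 5.50 and 5.56 log2 CPM in Z LIRKO mice against 4.31, 4.78, 3.73, 4.58 and 4.47 in Z mice. The groups did not overlap, and the difference was 0.97 ± 0.16 (SE, 1.95-fold, adjusted p = 6.18e-05). Wnt2 stood at 2.77, 2.81, 2.80 and 2.64 in Z LIRKO mice against 1.21, 1.91, 1.12, 2.30 and 2.00 in Z mice. The Z LIRKO values were tightly grouped above a wide Z range (1.05 ± 0.24, 2.07-fold, adjusted p = 0.00168). Rspo3 stood at 3.36, 3.24, 3.13 and 3.42 in Z LIRKO mice against 2.81, 2.41, 2.46, 2.79 and 2.47 in Z mice. It too had no overlap (0.70 ± 0.14, adjusted p = 0.000518). Wnt9b stood at 1.91, 1.38, 1.68 and 1.71 in Z LIRKO mice against 0.36, 1.41, 0.85, 1.34 and 1.62 in Z mice, with overlap (0.55 ± 0.27).

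Among the surface genes 5 of 6 passed, Lyve1 being the exception (0.80 ± 0.37). Clec4g, a lectin gene of sinusoidal cells, stood at 5.92, 6.06, 5.91 and 5.86 in Z LIRKO mice against 5.54, 5.38, 5.63, 5.43 and 5.56 in Z mice. It varied little within groups, and the groups were apart (0.43 ± 0.10, adjusted p = 0.00142). Pecam1, which encodes CD31 at endothelial junctions, rose by 0.53 ± 0.14 (SE, adjusted p = 0.0045) with no overlap. Kdr rose by 0.50 ± 0.14 (SE, adjusted p = 0.0071), with overlap between the groups. The scavenger receptor genes Stab2 (0.40 ± 0.15, adjusted p = 0.0363) and Stab1 (0.25 ± 0.10, adjusted p = 0.0443) passed by a small margin. In all, the groups of 5 members did not overlap, against 25.9% of all genes.

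The calls of Stab1 and Stab2 were lost on leaving out Z mouse 1410 or 1442 or Z LIRKO mouse 1412, 1428 or 1450 (Stab1 0.19 to 0.27, Stab2 0.29 to 0.41). They were also lost with the clock value in the model or when only Z LIRKO and Z were fitted, and that of Stab1 with voom weights. Without the Prss2 libraries 5 members passed, Bmp2, Wnt2, Rspo3, Kdr and Pecam1. Of the 25 other sinusoidal genes 18 rose and none fell, with a median of 0.47. They included Tek, the angiopoietin receptor (0.54), Fcgr2b, an Fc receptor that clears immune complexes (0.50), and Robo4, an endothelial guidance receptor (0.57). Kupffer cell markers rose in 9 of 12 cases, with summed levels of 973.7 to 1120 CPM in Z LIRKO and 547.0 to 788.7 CPM in Z livers. Lymphocyte markers rose in 6 of 9, with summed levels of 21.9 to 27.9 CPM in Z LIRKO and 8.01 to 17.9 CPM in Z livers, and stellate cell markers rose in 7 of 15. The part of these cells was not tested.

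Neither the transgene alone nor its addition to LIRKO moved a member past the threshold. In Z against WT livers 0 members passed by limma and 0 with voom weights, and 1, Rspo3, had an unadjusted p under 0.05 (-0.34 ± 0.15). Of all genes 10.4% passed, 5.89% as higher and 4.54% as lower. In Z LIRKO against LIRKO livers 0 passed by limma and 0 with voom weights, and 1, Lyve1, had an unadjusted p under 0.05 (1.26 ± 0.39), where 1.1% of genes passed. Bmp2 differed by 0.09 in Z against WT (95% interval -0.27 to 0.44) and by 0.29 in Z LIRKO against LIRKO (-0.05 to 0.63). The difference between the LIRKO effects with and without the transgene was tested directly. No member passed by limma or with voom weights, 1 (Lyve1) had an unadjusted p under 0.05, and 0.199% of genes passed, 0.0588% as higher. For Bmp2 this difference was 0.20 (95% interval -0.29 to 0.70), and for Wnt2 0.27 (-0.48 to 1.02). The effects in Z LIRKO and LIRKO livers are thus not shown to differ.

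**Figure D2:**
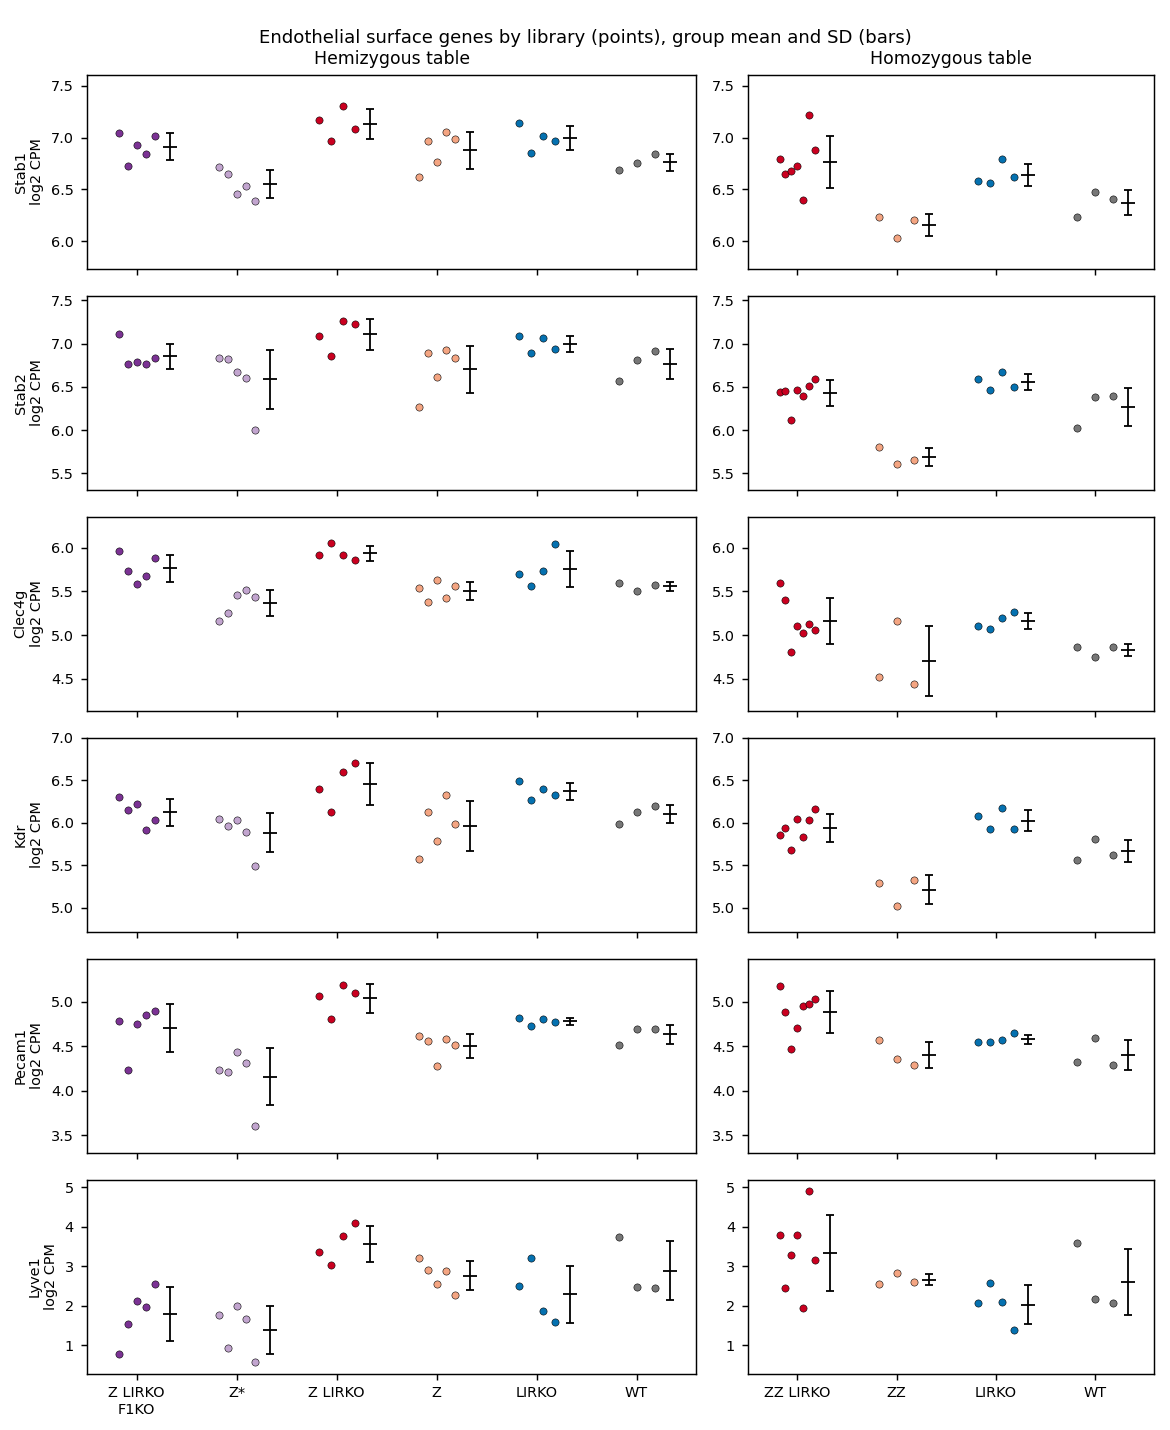
Log2 CPM of the 6 surface genes in every library, by group, with group mean and SD at the right of the points, in the hemizygous (left) and homozygous (right) tables. Stab2, Kdr and Pecam1 share their lowest hemizygous library, Z* mouse 285, at 6.0, 5.49 and 3.61. Lyve1 spreads widely, over 0.58 to 4.08 in the hemizygous table.

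FOXO1 was lost together with the insulin receptor in the Z LIRKO F1KO mice, and these were set against both Z* and Z LIRKO livers. The comparisons share the Z LIRKO F1KO mice. Against Z*, which has the same source name, 3 members passed, all surface genes and all higher (23.5% of genes passed, 12.4% as higher). Stab1 stood at 7.05, 6.73, 6.93, 6.84 and 7.01 in Z LIRKO F1KO mice against 6.72, 6.65, 6.46, 6.53 and 6.39 in Z* mice (0.36 ± 0.09, adjusted p = 0.0055). Clec4g stood at 5.96, 5.73, 5.58, 5.67 and 5.88 in Z LIRKO F1KO mice against 5.17, 5.25, 5.46, 5.51 and 5.44 in Z* mice (0.40 ± 0.09, adjusted p = 0.00239). Both pairs of groups were apart, as for 13.5% of all genes. Pecam1 rose by 0.54 ± 0.13 (SE, adjusted p = 0.0037) with overlap.

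No ligand gene passed in that comparison. Bmp2 stood at 4.66, 4.56, 4.55, 4.34 and 4.56 in Z LIRKO F1KO mice against 4.15, 4.36, 4.26, 3.93 and 4.16 in Z* mice. Only 1 Z LIRKO F1KO value lay within the Z* range, and the difference was 0.36 ± 0.15 (SE, 95% interval 0.06 to 0.67, adjusted p = 0.0784). Rspo3 differed by 0.33 ± 0.13 (SE, adjusted p = 0.0755), Wnt2 by 0.37 ± 0.23 (SE, adjusted p = 0.242) and Wnt9b by 0.38 ± 0.25 (SE, adjusted p = 0.285). This depended on the scaling. With CPM scaled by the plain read sum all genes moved up by 0.216 in this comparison, and then 8 members passed as higher, Bmp2, Rspo3 and Wnt2 among them. When only these groups were fitted Bmp2 also passed (adjusted p = 0.0278), and Rspo3 passed without Z* mouse 249 (adjusted p = 0.0156). Without the Prss2 libraries 1 member passed, Clec4g. Kupffer cell markers rose in 12 of 12 cases, with summed levels of 889.9 to 1661 CPM in Z LIRKO F1KO and 461.2 to 558.1 CPM in Z* livers, and their part was not tested.

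Against Z LIRKO livers all 10 members were lower on average in Z LIRKO F1KO livers, and 3 passed, where 22.5% of genes passed and 11.1% passed as lower. Bmp2 stood at 4.34 to 4.66 in the 5 Z LIRKO F1KO mice against 4.94 to 5.56 in the 4 Z LIRKO mice. The groups were well apart, and the difference was -0.80 ± 0.16 (SE, adjusted p = 0.000642). Rspo3 stood at 2.72, 2.72, 2.84, 2.86 and 3.10 in Z LIRKO F1KO mice against 3.36, 3.24, 3.13 and 3.42 in Z LIRKO mice. The gap between the groups was narrow (-0.44 ± 0.14, adjusted p = 0.0258), and the call was lost on leaving out Z LIRKO mouse 1412 or 1450 or Z LIRKO F1KO mouse 169 or 170 (-0.41 to -0.40), and with the plain read sum (-0.37, adjusted p = 0.0867). Lyve1 fell furthest, by 1.76 ± 0.37 on the log2 scale (SE, adjusted p = 0.00115). Without Z LIRKO mouse 1427 the members Kdr and Pecam1 passed as well, 5 in all. Groups that did not overlap were seen for 4 of 10 members, and for 18.4% of all genes.

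The LIRKO effect with and without FOXO1 was compared as a difference of differences, (Z LIRKO F1KO minus Z*) minus (Z LIRKO minus Z). Here 0 members passed by limma and 0 with voom weights, 1 had an unadjusted p under 0.05, and 6.63% of genes passed. That member was Bmp2, at -0.60 ± 0.22 (SE, 95% interval -1.05 to -0.15, adjusted p = 0.0958). It passed without Z mouse 1411 (-0.70, adjusted p = 0.0409) and without Z LIRKO mouse 1427 (-0.73, adjusted p = 0.0379). For Wnt2 the difference was -0.67 ± 0.33 (SE, adjusted p = 0.224) and for Rspo3 -0.37 ± 0.19 (SE, adjusted p = 0.256). For Pecam1 and Clec4g it was 0.01 and -0.03, with 95% intervals of -0.38 to 0.40 and -0.30 to 0.24.

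**Figure D3:**
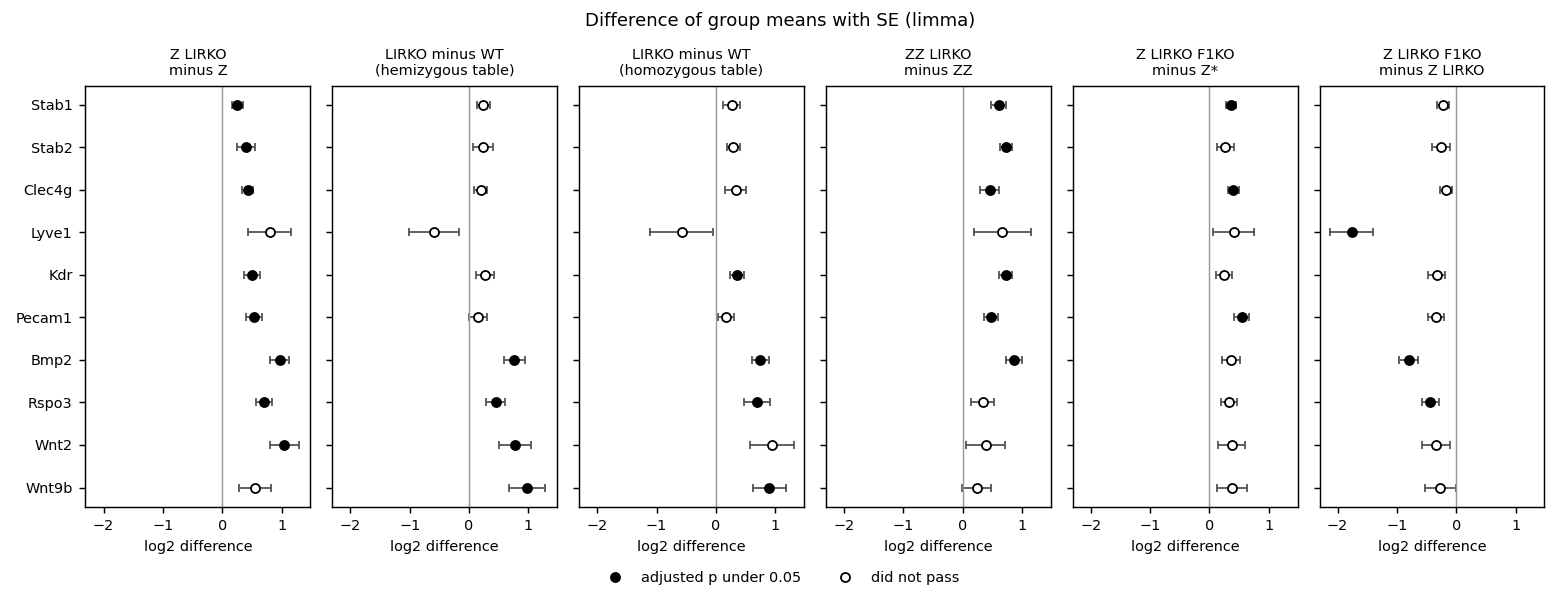
Log2 difference between group means with its SE for the 10 members in 6 comparisons, filled where the adjusted p was under 0.05. Bmp2 is filled in all 4 comparisons of LIRKO with its own control, at 0.75 to 0.97, and is at 0.36 in Z LIRKO F1KO minus Z* and at -0.80 in Z LIRKO F1KO minus Z LIRKO.

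Lyve1, a hyaluronan receptor gene that lymphatic endothelium and some macrophages also express, was low in both groups that carry the other source name. It stood at 0.78, 1.54, 2.12, 1.98 and 2.56 in Z LIRKO F1KO mice and at 1.76, 0.92, 1.99, 1.66 and 0.58 in Z* mice. The other hemizygous groups reached higher, with 3.36, 3.04, 3.75 and 4.08 in Z LIRKO, 3.20, 2.91, 2.54, 2.87 and 2.27 in Z, 2.51, 3.21, 1.88 and 1.58 in LIRKO and 3.74, 2.47 and 2.45 in WT mice. Between the PiZ groups that carry neither deletion, Z* against Z, Lyve1 differed by -1.38 ± 0.35 (SE, adjusted p = 0.0138) with no overlap. The drop of Lyve1 in Z LIRKO F1KO against Z LIRKO livers and the change of source cannot be told apart. In the limma fit of all groups Lyve1 passed in no comparison of LIRKO with its own control. When only Z LIRKO and Z were fitted it passed (0.80, adjusted p = 0.0222), as it did with voom weights. In LIRKO against WT livers it was -0.59 and in Z LIRKO against Z livers 0.80, and this difference of 1.39 ± 0.56 (SE) had an adjusted p of 0.394. Stab1 was the other member to pass in Z* against Z livers (-0.33 ± 0.09, adjusted p = 0.0236, with overlap), where 9.47% of genes passed, 5.1% as lower, and 6.65% had groups apart. Its call was lost when only these groups were fitted, and without Z mouse 1443 or 1445 or Z* mouse 249 or 285 (-0.31 to -0.28). Of the lymphatic list 3 of 5 genes were in the table, and they summed to 69.8 to 134.1 CPM in Z* and 86.2 to 119.1 CPM in Z livers. Among these 3 is Reln, which is also on the stellate cell list, so the sum is not a measure of lymphatic endothelium alone.

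With the homozygous transgene, members passed about as often as genes in general, with Stab2 and Kdr lower and Wnt9b higher. In ZZ against WT livers 3 of 10 members passed, 1 higher and 2 lower, where 30.3% of 13690 genes passed, 16.1% as higher and 14.2% as lower. Wnt9b stood at 1.41, 1.45 and 1.58 log2 CPM in ZZ mice against 0.36, 0.46 and -0.28 in WT mice (1.30 ± 0.29, 2.47-fold, adjusted p = 0.00332). Stab2 stood at 5.65, 5.61 and 5.81 in ZZ mice against 6.40, 6.39 and 6.02 in WT mice (-0.58 ± 0.12, adjusted p = 0.00176). Both sets were apart, but so were those of 45.0% of all genes with 3 mice a group. Kdr fell by 0.45 ± 0.12 on the log2 scale (SE, adjusted p = 0.0103).

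Bmp2 did not differ beyond its spread, with 4.2, 4.14 and 4.16 in ZZ mice against 4.34, 4.01 and 4.22 in WT mice (-0.03, 95% interval -0.37 to 0.31). Scaling mattered here. With the plain read sum all genes moved up by 0.274, the split of calls turned to 2 higher (Wnt9b and Rspo3) and 0 lower, and Stab1, Clec4g and Bmp2, none of which passed, changed sign. The calls of Stab2 (-0.30, adjusted p = 0.0965) and Kdr (-0.18, adjusted p = 0.321) were then lost. Kdr also lost its call without WT mouse 1586 (-0.38) or ZZ mouse 1809 (-0.36), and without the Prss2 libraries only Wnt9b passed. Markers of other cell types moved by more than the members. All 6 cholangiocyte markers and all 9 markers of recruited macrophages rose, and 10 of 15 stellate cell and fibroblast markers. The cholangiocyte markers summed to 185.9 to 225.5 CPM in ZZ livers and to 26.7 to 47.2 CPM in WT livers. The recruited macrophage markers summed to 303.2 to 352.2 CPM in ZZ livers and to 35.2 to 51.3 CPM in WT livers. Spp1 is on both of these lists, so their counts and sums share a gene. The part of these cells was not tested.

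With insulin receptor loss in homozygous livers 6 members were higher. In ZZ LIRKO against ZZ livers these were Bmp2 and all surface genes but Lyve1, where 26.8% of genes passed and 13.2% passed as higher. The median log2 difference was 0.54 over the members and -0.01 over all genes. Bmp2 stood at 4.63 at the lowest, 5.08 at the median and 5.43 at the highest of the 7 ZZ LIRKO mice, against 4.14 to 4.2 in the 3 ZZ mice. Every ZZ LIRKO mouse was above every ZZ mouse (0.87 ± 0.14, 1.82-fold, adjusted p = 0.000254). Stab2 stood at 6.11, 6.46 and 6.60 (lowest, median and highest) in ZZ LIRKO mice against 5.61 to 5.81 in ZZ mice (0.73 ± 0.10, adjusted p = 8.03e-05). Kdr was at 5.68, 5.94 and 6.17 in ZZ LIRKO mice against 5.02 to 5.33 in ZZ mice (0.72 ± 0.10, adjusted p = 0.000114). Stab1 rose by 0.61 ± 0.13 (SE, adjusted p = 0.00204), and these 4 genes had groups apart, as had 23.0% of all genes.

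Pecam1 rose by 0.48 ± 0.12 (SE, adjusted p = 0.00782) and Clec4g by 0.45 ± 0.16 (SE, adjusted p = 0.0408), both with overlap. With the plain read sum all genes moved down by 0.178 and the calls of these 2 were lost. Clec4g also lost its call when only these groups were fitted, without the Prss2 library (as did Pecam1, at 0.42), and on leaving out ZZ LIRKO mouse 1855, 1810 or 1783 or ZZ mouse 1846 or 1682 (0.32 to 0.46). The other ligands were not past the threshold, and their ZZ LIRKO values spread widely. Wnt2 ranged over 1.44 to 3.12 in ZZ LIRKO mice against 2.03 to 2.17 in ZZ mice, Wnt9b over 0.83 to 2.36 against 1.41 to 1.58, and Rspo3 over 2.63 to 3.82 against 2.91 to 2.96. ZZ LIRKO mouse 1855 was the lowest in all 3. Of the 25 other sinusoidal genes 20 rose and none fell, with a median of 0.56. They included Cdh5, the cadherin of endothelial junctions (0.67), and Oit3 (0.88) and Esam (0.71), which mark endothelial cells. Cholangiocyte markers fell in 6 of 6 cases and recruited macrophage markers in 5 of 9, while Kupffer cell markers rose in 5 of 12. Spp1 is again on both the cholangiocyte and the recruited macrophage list. The part of these cells was not tested.

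Within LIRKO, the homozygous transgene moved no member past the threshold. In ZZ LIRKO against LIRKO livers 0 members passed by limma and 0 with voom weights, 3 had an unadjusted p under 0.05, and 10.6% of genes passed, 6.83% as higher. The 3 were Lyve1 (1.30), Wnt9b (0.64) and Pecam1 (0.31). On leaving out a ZZ LIRKO mouse 1 member passed in 4 cases: Lyve1 without mouse 1858 (1.53) or 1810 (1.45), Pecam1 without mouse 1813 (0.38) and Wnt9b without mouse 1855 (0.79). In the test of the difference between the LIRKO effects in ZZ and WT livers 0 passed by limma and 0 with voom weights, 2 had an unadjusted p under 0.05, and 7.75% of genes passed, 3.03% as higher and 4.72% as lower. The smallest adjusted p was that of Stab2, 0.0795, for a difference of 0.44 ± 0.15 (SE). It passed without WT mouse 1564 (0.57, adjusted p = 0.0293) or ZZ LIRKO mouse 1813 (0.50, adjusted p = 0.031).

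Since other endothelial genes moved with the ligands, each ligand was also measured against them, as its log2 CPM minus the mean of the 25 other sinusoidal genes in the same library. That mean stood at 5.30 ± 0.16 in Z LIRKO mice and 4.88 ± 0.12 in Z mice, at 5.18 ± 0.07 in LIRKO and 4.92 ± 0.04 in WT mice, and at 5.00 ± 0.08 in Z LIRKO F1KO and 4.71 ± 0.18 in Z* mice (SD). In the homozygous table it stood at 4.93 ± 0.16 in ZZ LIRKO mice, 4.37 ± 0.08 in ZZ mice, 4.84 ± 0.04 in LIRKO mice and 4.61 ± 0.07 in WT mice. Relative to it, Bmp2 was at 0.04 ± 0.15 in Z LIRKO mice and -0.50 ± 0.34 in Z mice, a difference of 0.54 (exact permutation test, two-sided, p = 0.0317, 0.145 after adjustment over 28 such tests). In LIRKO mice it was at -0.13 ± 0.13 and in WT mice at -0.64 ± 0.25, a difference of 0.50 (p = 0.0571 by the same exact test, the smallest that 4 against 3 mice allow). In Z LIRKO F1KO mice it was at -0.46 ± 0.12, against 0.04 ± 0.15 in Z LIRKO mice and -0.54 ± 0.19 in Z* mice. The exact p was 0.0159 against Z LIRKO, the smallest possible, and 0.46 against Z*.

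The other ligands were measured in the same way, and genes were not tested against each other. In LIRKO against WT mice relative Wnt9b was higher by 0.72 and relative Rspo3 by 0.19 (exact p = 0.0571 each), and relative Wnt2 by 0.52 (exact p = 0.171). In the homozygous table relative levels in LIRKO against WT livers were higher by 0.52 for Bmp2, 0.46 for Rspo3, 0.72 for Wnt2 and 0.67 for Wnt9b, all with an exact p of 0.0571. Relative Wnt2 was higher by 0.62 in Z LIRKO than in Z mice (exact p = 0.0317), and relative Rspo3 by 0.28 (exact p = 0.111). In ZZ LIRKO against ZZ mice relative Bmp2 was higher by 0.31 (exact p = 0.0333), but relative Rspo3, Wnt2 and Wnt9b were lower by 0.22, 0.17 and 0.32, with exact p of 0.267, 0.783 and 0.15. None of the 28 tests passed after adjustment, the smallest adjusted p being 0.145. The 28 also hold ZZ against WT livers, and LIRKO against WT livers in both tables, from the same mice. The smallest exact p that the numbers of mice allow is 0.0571 for LIRKO against WT and 0.1 for ZZ against WT. Tests of these comparisons could not pass, whatever the ligand levels. With the mean of the other sinusoidal genes as a covariate in the limma model, 0 members passed in LIRKO against WT, ZZ LIRKO against ZZ and Z LIRKO F1KO against Z LIRKO livers, and 2, Rspo3 and Clec4g, in Z LIRKO against Z livers. The Bmp2 difference then stood at 0.51 (adjusted p = 0.0689), 0.23 (adjusted p = 0.54), -0.51 (adjusted p = 0.0788) and 0.55 (adjusted p = 0.0906) in these 4 comparisons. In each of these 4 comparisons the covariate itself did not overlap between the groups, so this fit cannot separate the covariate from the groups. The relative levels and this fit were chosen after the data had been seen.

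**Figure D4:**
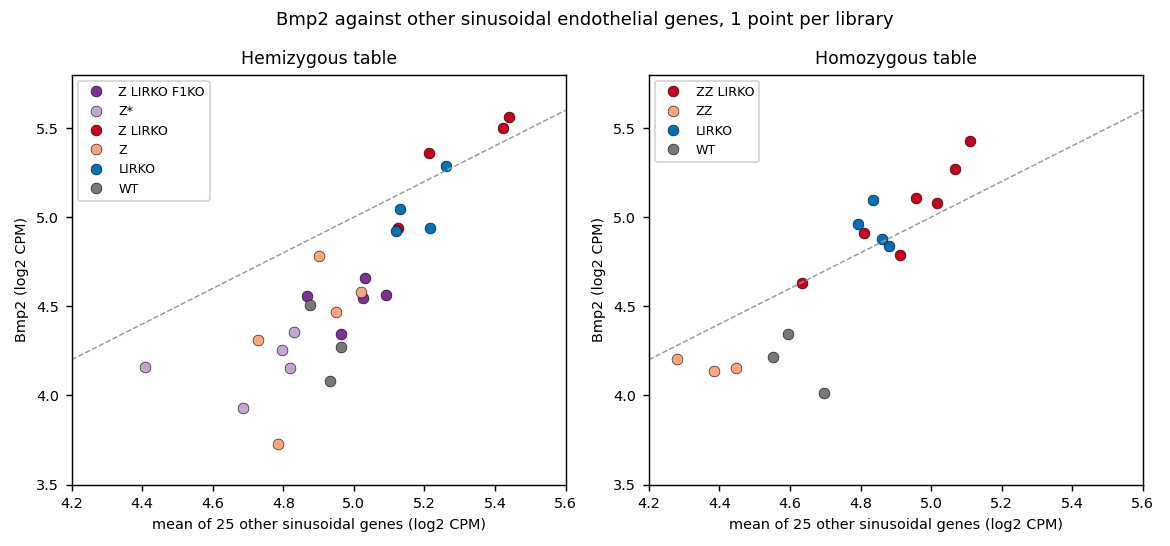
Bmp2 (log2 CPM) against the mean of 25 other sinusoidal genes (log2 CPM), 1 point per library, with a dashed line where they are equal, in the hemizygous (left) and homozygous (right) tables. The Z LIRKO points lie at 4.94 to 5.56 and at or near the line, and the Z LIRKO F1KO points at 4.34 to 4.66 and below it, with the Z* and Z points.

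Calls among the other endothelial ligands went in both directions. Of 13 tested in the hemizygous table, 2 rose and 1 fell in Z LIRKO against Z livers (median 0.36), and in LIRKO against WT livers 1 fell (median 0.03). In these 2 comparisons 34.3% and 23.7% of all genes passed, so calls were no more frequent among these ligands than among all genes. The ligand gene that fell was Wnt5a, a WNT that acts mostly outside the beta-catenin route. It averaged -0.77 ± 0.30 log2 CPM in Z LIRKO mice and 1.33 ± 0.16 in Z mice (-2.10 ± 0.26, adjusted p = 1.99e-06), and in LIRKO against WT livers it fell by 1.65 on the log2 scale. It was higher by 2.59 in Z LIRKO F1KO than in Z LIRKO livers, which also differ in source name. The difference of differences, whose parts each lie within a source name, was smaller and passed at 1.66 ± 0.36 (SE, adjusted p = 0.00619). In ZZ LIRKO against ZZ livers 2 of 15 rose and 4 fell (median 0.07), and in ZZ against WT livers 6 rose and none fell (median 0.36). Of all genes 13.2% passed as higher and 13.6% as lower in the former, and 16.1% passed as higher in the latter. Bmp6, which works with BMP2 on hepcidin, was 1 of the 2 that rose in ZZ LIRKO against ZZ livers (0.64 ± 0.18, adjusted p = 0.0144). Hgf, the hepatocyte growth factor gene, rose in Z LIRKO against Z livers (0.63, adjusted p = 0.0242) and in Z LIRKO F1KO against Z* livers (0.74, adjusted p = 0.00856).

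On the receiving side, the BMP list held 21 tested receptors, mediators and targets. Of these 7 rose and none fell in Z LIRKO against Z livers, and 9 rose and 1 fell in LIRKO against WT livers. In ZZ LIRKO against ZZ livers 8 rose and none fell. Of all genes 16.7%, 11.8% and 13.2% passed as higher in these comparisons, in that order. Acvr2b, an activin and BMP receptor gene, was among the 3 strongest in each of these, at 1.32 ± 0.20, 1.37 ± 0.22 and 1.05 ± 0.14 (SE). Smad9, a mediator of BMP signals, rose by 1.56 in Z LIRKO against Z and by 1.96 in ZZ LIRKO against ZZ livers. Hamp2 rose by 2.64 ± 0.37 in Z LIRKO against Z livers, but its reads may be shared with Hamp, a near-identical copy that encodes hepcidin, so its value is uncertain. Hamp2 also differed by -3.72 ± 0.35 between Z* and Z livers, which differ in source name. In Z LIRKO F1KO against Z LIRKO livers, which also differ in source name, 6 of 21 fell and none rose, where 11.1% of all genes passed as lower. In the difference of differences 4 of 21 were lower, as were 3.35% of all genes. Among them were Acvr2b at -1.21 (adjusted p = 0.00732) and Atoh8, a BMP-responsive factor gene, at -1.16 (adjusted p = 0.0134).

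For the WNT ligands, 16 pericentral target genes were tested. In Z LIRKO against Z livers 8 rose and 3 fell (median 0.57), in LIRKO against WT livers 3 rose and 2 fell (median 0.46), and in ZZ LIRKO against ZZ livers 4 rose and 3 fell (median 0.21). Znrf3, a target whose product removes WNT receptors, rose in all 3, by 1.03 ± 0.14, 1.0 ± 0.16 and 0.71 ± 0.14 (SE). Tcf7, a beta-catenin partner gene, rose by 1.13 ± 0.24 in Z LIRKO against Z livers. Lect2 went the other way, with -1.42 ± 0.20 in Z LIRKO against Z livers and -1.21 ± 0.23 in LIRKO against WT livers. In the difference of differences 6 of 16 were lower and 2 higher, where 3.35% and 3.27% of all genes were. In its parts, Z LIRKO F1KO against Z LIRKO livers had 3 of 16 higher and 3 lower (median -0.08), and Z* against Z livers had 5 higher and none lower (median 0.17). Of all genes 11.5% passed as higher and 11.1% as lower in the former, and 4.37% as higher and 5.1% as lower in the latter. Axin2, the feedback inhibitor, was at -1.94 ± 0.48 in the difference of differences (SE, adjusted p = 0.0164), but it averaged 3.53 ± 0.58 log2 CPM in Z* mice and 2.19 ± 0.73 in Z mice. Znrf3 was at -0.67 ± 0.19 (SE, adjusted p = 0.0384). Of 19 WNT and RSPO receptors and inhibitors, 4 rose and 1 fell in Z LIRKO against Z livers, and 1 rose in LIRKO against WT livers. The shares of all genes in these comparisons are those given above.

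The VEGF list showed the partners of Kdr. In Z LIRKO against Z livers 5 of 7 rose and none fell, where 16.7% of all genes passed as higher. Vegfb (0.78 ± 0.15), Nrp2, a co-receptor (0.76 ± 0.18), and Flt4, the receptor VEGFR3 (0.58 ± 0.17), were the strongest. In Z LIRKO F1KO against Z LIRKO livers, which also differ in source name, 5 of 7 fell, where 11.1% of all genes passed as lower. Vegfb fell by 0.67, Flt4 by 0.74 and Vegfa by 0.46 on the log2 scale. The list of vein and continuous endothelium genes behaved otherwise in homozygous livers. Of 14 tested, 7 rose in ZZ against WT livers, where 16.1% of all genes passed as higher. Cd34, a marker of continuous endothelium and of other cells, was at 2.42 ± 0.33 and Ly6a at 2.01 ± 0.36. Ly6a, Ly6c1, Bgn, Mgp and Clu on this list are not restricted to endothelium either, and the cells behind the rise were not tested. In the same comparison 6 of 25 sinusoidal genes fell and none rose, where 14.2% of all genes passed as lower. Oit3 fell by 0.63 and the mannose receptor gene Mrc1 by 0.49.

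The members did not vary as 1 block. Correlations were taken over deviations from the group means, which share the library and its scaling, and are given as descriptions. Over the 26 hemizygous libraries Stab2 and Kdr correlated most (Pearson r = 0.89, Spearman rho = 0.88), and over the 17 homozygous libraries at 0.79 and 0.78. Stab1 and Stab2 were at 0.81 and 0.84 in the hemizygous and 0.51 and 0.72 in the homozygous table. Wnt2 and Wnt9b were at 0.64 and 0.61 in the hemizygous and 0.67 and 0.62 in the homozygous table. Wnt9b and Rspo3 were close in the homozygous table (0.91 and 0.76) but not in the hemizygous one (-0.06 and -0.05). Clec4g went with none of the others in the hemizygous table, at -0.40 to -0.02 by Pearson's r with each of the 9, Lyve1 at the low end.

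Among all genes, those most like a member in the hemizygous libraries were taken by the Pearson correlation of these deviations. For Stab2 they were Adgrf5 (0.90), an adhesion receptor gene of endothelium and a member of the sinusoidal list, Kdr (0.89) and Podxl (0.89). For Stab1 they were Stab2, Dnm2 (0.78) and Snrk (0.78), and for Kdr they were Sec24a (0.89), Stab2 and Sec16a (0.88). For Bmp2 they were Maml1 (0.86), Jup (0.84) and Spen (0.81), and for Rspo3 Selenop (0.78), Tcf7 (0.77) and B2m (0.77). For Wnt2 they were Slc44a2 (0.77), Tpbgl (0.76) and Olig1 (0.74), and for Wnt9b Tmcc2 (0.84) and Slc26a10 (0.84). Without the 2 libraries farthest from the median, Bmp2 with Maml1 stood at 0.75 and Wnt9b with Tmcc2 at 0.68. For Pecam1 they were Fyn (0.82), Adgra2 (0.81) and Plcg2 (0.81), which fell to 0.60, 0.65 and 0.56 without the 2 libraries. For Clec4g they were Gckr (0.73), Cdk5rap1 (0.71) and Nudt13 (0.70), and for Lyve1 Otud7b (0.79), Ppard (0.77) and Timp3 (0.76).

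The order of the groups was alike for most members. In the hemizygous table Z LIRKO had the highest mean in 9 of the 10, Rspo3 being highest in LIRKO mice. Z* had the lowest mean in 8 of the 10, the exceptions being Wnt2 (lowest in Z) and Wnt9b (lowest in WT). Neighbours in this order mostly overlapped. For Bmp2 the order was Z LIRKO (5.34 ± 0.28), LIRKO (5.05 ± 0.17), Z LIRKO F1KO (4.53 ± 0.12), Z (4.37 ± 0.40), WT (4.29 ± 0.21) and Z* (4.17 ± 0.16), and LIRKO and Z LIRKO F1KO were the only neighbours without overlap, with a gap of 0.51 between their means. For Rspo3 the only such neighbours were Z LIRKO (3.29 ± 0.13) and WT (2.92 ± 0.13). In the homozygous table Bmp2 was at 5.03 ± 0.28 in ZZ LIRKO and 4.94 ± 0.11 in LIRKO mice, and at 4.19 ± 0.17 in WT and 4.16 ± 0.03 in ZZ mice. There the gap of 0.75 lay between LIRKO and WT mice, again with no overlap.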

How the data were processed

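RNA of whole mouse liver was measured by RNA-seq. The deposited values are log2 CPM per gene, which the authors made from read counts; per the submitters' processing notes the tools were STAR 2.0.4b, Subread and featureCounts 1.4.5, with the GRCm38 build. No source used here gives their order of use, their settings or the annotation. Undoing the log2 step with a prior of 0.5 reads gave whole reads (within 0.01) for all values. The tables were scaled separately, so tests ran within a table, and the 7 mice in both were never counted as further animals. 1 further column of values matched no label and was not used.

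Genes at 0 log2 CPM or more in at least 3 libraries were fitted in limma 3.58.1 (R 4.3.3) with all groups of a table and a mean-variance trend. Moderated tests were two-sided, with Benjamini-Hochberg adjustment over all genes of a comparison and a threshold of 0.05. "Passed" means an adjusted p under this threshold. Intervals are 95% intervals of the fit. On simulated counts for Z LIRKO against Z (13237 genes), 12.5% of 1.5-fold, 78.5% of 2-fold and 100% of 4-fold changes were recovered. The simulation changed only 200 genes and gave every gene the same spread. These shares therefore check the method and do not give the detection limit for the real genes.

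From other lists only the 3 called genes with the smallest p per list and comparison are named. The members and lists were chosen with earlier results of these data known. Alternatives were 8 other settings (scaling, filter, pseudocount, voom weights, groups fitted, Prss2 libraries, clock covariate, each mouse left out) and a covariate, the mean of the other sinusoidal genes, added after seeing the data, as were the exact permutation tests of relative levels. The "Prss2 libraries" are those with Prss2 above 0 log2 CPM. 1 like gene of Wnt9b is not reported here.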

Additional observations from a re-analysis of the deposited data

Results flagged for a closer look

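In groups of 4 to 10 mice, 8 of 70 sets of member values held a mouse whose gap to its nearest neighbour was large for the range of the group, where chance gives about 1 in 20. Z* mouse 285 was the low one in 3 of them, with 6.0 log2 CPM for Stab2, 5.49 for Kdr and 3.61 for Pecam1. For Stab2, Z LIRKO F1KO mouse 169 was high at 7.11, and ZZ LIRKO mouse 1813 was low at 6.11. For Pecam1, Z LIRKO F1KO mouse 170 was low at 4.23 and Z mouse 1442 at 4.28. For Rspo3, LIRKO mouse 1600 was high at 3.35 in the homozygous table.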

How the results depend on the processing

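Of 140 gene results 33 passed, and 14 of them passed under all 8 other settings, the added covariate aside. Without the Prss2 libraries the count of members that passed was 1 for LIRKO against WT, 5 for Z LIRKO against Z, 1 for Z LIRKO F1KO against Z* and 1 for ZZ against WT. The clock covariate gave 1 for LIRKO against WT, where the clock value did not overlap between the groups. The plain read sum gave 8 for Z LIRKO F1KO against Z*, fitting only the groups compared gave 1 for Z* against Z, and voom weights gave 2 for homozygous-table LIRKO against WT. With the added covariate, the mean of the other sinusoidal genes, the count was 0 for LIRKO against WT, Z LIRKO F1KO against Z LIRKO, Z* against Z and ZZ LIRKO against ZZ, 1 for Z LIRKO F1KO against Z* and for homozygous-table LIRKO against WT, and 2 for Z LIRKO against Z. It turned the sign of Stab1 (-0.11), Stab2 (-0.27) and Kdr (-0.11) in Z LIRKO against Z, and of Clec4g (-0.018) and Pecam1 (-0.19) in ZZ LIRKO against ZZ. In both of these comparisons the covariate did not overlap between the groups, so the fit cannot separate it from genotype. Leaving out each mouse in turn gave 1 to 3 for LIRKO against WT, 6 to 8 for Z LIRKO against Z, 2 to 5 for Z LIRKO F1KO against Z LIRKO, 1 to 2 for Z* against Z, 1 to 4 for homozygous-table LIRKO against WT, and 0 to 1 for ZZ LIRKO against LIRKO and for the differences of differences with FOXO1 and with ZZ. The cause was not tested. No paired analysis was possible because the groups compared share no mice. Depth limits Wnt9b, Lyve1 and Wnt2 most, with as few as 13, 19 and 37 reads.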
